A study of Mus musculus with 9 samples.

Results

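The nuclear receptor superfamily was followed through the differentiation of 3T3-L1 cells. Its 46 mouse genes were taken by their official names from the family's own nomenclature. RNA sequencing had been performed at 3 stages, with 3 samples at each stage and 9 in all. 3T3-L1 is a clonal mouse preadipocyte line, so the 9 samples come from 1 line and not from animals. Day 0 samples were near-confluent, uninduced cells. Day 4 samples had received dexamethasone (a synthetic glucocorticoid), IBMX (a phosphodiesterase inhibitor) and insulin for 2 days and then insulin alone for 2 days. Day 8 samples had spent 4 more days in medium with insulin. All groups shared the same serum medium, and no untreated day 4 or day 8 cells were analysed here, so days in culture, medium and differentiation cannot be told apart. The RNA of each stage was described as pooled, so a p-value measures the spread between these samples, which may be technical.

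Nuclear receptors are transcription factors that carry a zinc-finger DNA-binding domain and, in most members, a pocket for a small lipophilic ligand such as a steroid, thyroid hormone, a retinoid, an oxysterol or a fatty acid. Steroid receptors bind DNA as homodimers, the receptors for retinoic acid, thyroid hormone, vitamin D, oxysterols and fatty acids bind as heterodimers with a retinoid X receptor (RXR), and several orphan receptors bind as monomers. PPARγ is known as the master regulator of the fat cell, the glucocorticoid receptor is the target of the dexamethasone in the induction cocktail, and the REV-ERB and ROR receptors belong to the circadian clock.

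The depth was even. The total of expected counts (the number of reads that the authors' software assigned to each gene) lay between 18216100 and 20452100 per sample. Levels are given as FPKM, fragments per kilobase of transcript scaled to the mapped total, which corrects for gene length and depth and so allows genes to be set side by side. Changes are given as log2 fold changes from a model of the counts, with their standard error (SE). A gene was called upregulated or downregulated when its adjusted p was under 0.05 and its change exceeded 2-fold, and it is described as higher or lower when its adjusted p alone was under 0.05. The early phase is day 4 against day 0, the late phase is day 8 against day 4, and the whole process is day 8 against day 0. The early and late phases share the day 4 samples.

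The adipocyte markers went with the stage labels, while the summed preadipocyte and fibroblast markers were lower at day 4 and not at day 8. The 8 adipocyte markers summed to between 16 and 19.05 FPKM in the day 0 samples, to between 4992 and 7328 FPKM at day 4 and to between 7567 and 8097 FPKM at day 8, with Fabp4 the most abundant. Of these, Lep, Plin1, Cfd and Retn had a mean of under 10 counts at day 0 and passed the filter on low counts, described below, through the later days. The 8 preadipocyte and fibroblast markers summed to between 4584 and 4851 FPKM at day 0, to between 3101 and 3445 at day 4 and to between 5530 and 5645 at day 8, with Col1a2 the most abundant. Of these 8, 7 were lower (33.7% of all genes) and Pdgfra was higher (35.5%) in the early phase. In the late phase 5 were higher (22.5% of all genes) and 1 was lower (22.7%). Over the whole process 4 were higher (34.8% of all genes) and 3 were lower (36.2%). The extraction note in the sample labels speaks of removed DRG, a term that is not a cell line. The 7 sensory neuron markers summed to between 0.55 and 1.62 FPKM in the 9 samples, most of it Snap25 at days 4 and 8 (1.12 ± 0.047 and 1.10 ± 0.049 FPKM, SD, n = 3, from 0.0267 ± 0.046 at day 0), with Scn10a at 0 in the day 0 and day 4 samples. The 4 Schwann cell markers summed to between 0.85 and 1.97 FPKM. The lists for macrophages (4.31 to 6.65 FPKM, mostly Cd14), endothelium (0.24 to 1.08 FPKM), skeletal muscle (0.48 to 1.82 FPKM) and hepatocytes (0.07 to 0.3 FPKM) were also low, with Adgre1, Ptprc, Itgam, Cdh5, Kdr, Tek, Myod1, Myog, Alb and Ttr each at a day mean of no more than 0.147 FPKM. Other members of these lists stood higher: Cd68 had day means of 1.30 to 1.49 FPKM, and Csf1r reached 0.38. Vwf, at 0.47 FPKM at day 0, was downregulated in the early phase (-2.95 ± 0.25; 7.98% of all genes). Pecam1 (1.01 ± 0.35) and Acta1 (1.16 ± 0.31) were upregulated in the late phase (4.24% of all genes). The part of these cell types in the results below was not tested. The 6 chondrocyte and osteoblast markers summed to between 73.92 and 81.42 FPKM at day 0 and to between 34.08 and 39.41 FPKM later, mostly Sox9 and Runx2. In these bulk samples, fewer cells of a type and less RNA per cell cannot be told apart.

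Of the 46 receptors, 42 were listed in at least 1 sample and 29 in all 9. Nr2e3, Pgr, Nr0b1 and Nr0b2 were in no sample's list. A day mean of at least 0.1 FPKM was reached by 28 members, of at least 1 FPKM by 25 and of at least 10 FPKM by 16. The summed level of the family was 652, 648 and 668 FPKM in the day 0 samples, 840, 880 and 888 FPKM at day 4, and 867, 865 and 871 FPKM at day 8. The family's summed level at day 0 lay below every later sample, and the day 4 and day 8 samples overlapped. The count model tested 26 members of 13154 genes in all, after a filter on low counts. The other 20 members never exceeded 18.6 expected counts or 0.27 FPKM in a sample. Rxrg and Thrb were tested although their mean was under 10 counts at day 0 and at day 4, respectively: each passed the filter through the days at which it was higher, so its difference was in part a condition of being tested. The same holds for genes of the lists with a mean under 10 counts at a day, among them Lep, Cfd, Retn, Cd36, Plin1, Pck1, Aqp7, Thrsp, Hlf, Npas2, S100g and Trpv6.

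**Figure D1:**
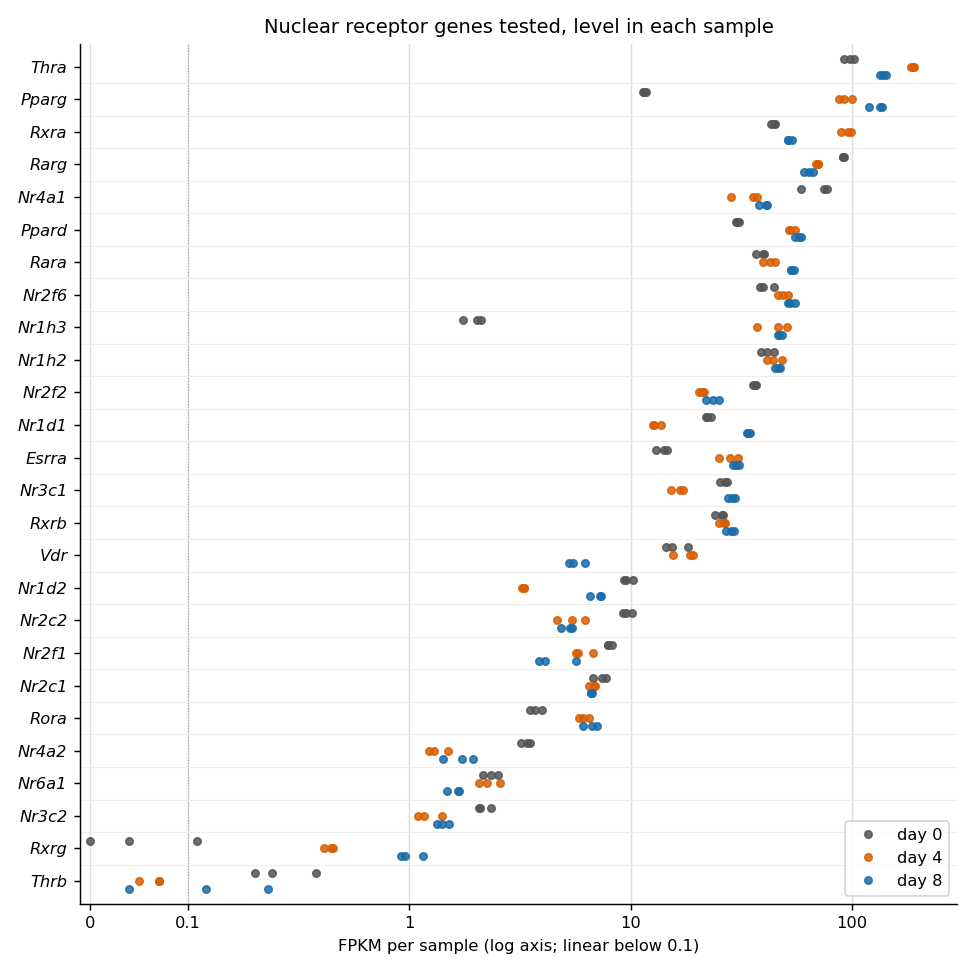
FPKM (log axis, linear below 0.1) of each of the 26 tested nuclear receptor genes in each of the 9 samples, ordered by the highest day mean, with 1 point per sample coloured by day. Thra has the highest mean at every day, Pparg and Nr1h3 are far to the right of their day 0 points at days 4 and 8, Vdr is lower at day 8, and Nr1d1, Nr1d2 and Nr3c1 are lowest at day 4.

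In the early phase 6 members were upregulated (Pparg, Rxra, Rxrg, Thra, Nr1h3 and Esrra), a direction called in 9.77% of all genes tested, and 3 were downregulated (Thrb, Nr1d2 and Nr4a2), against 7.98% of all genes. By adjusted p alone 12 of the 26 were higher (35.5% of all genes) and 11 were lower (33.7% of all genes). In the late phase 3 were upregulated (Rxrg, Nr1d1 and Nr1d2; 4.24% of all genes) and Vdr alone was downregulated (2.81% of all genes), while 12 were higher (22.5% of all genes) and 5 were lower (22.7% of all genes). With libraries scaled by size alone 7 were higher in the late phase, without Ppard, Rxrb, Nr2f6, Nr4a1 and Nr4a2. Over the whole process 5 were upregulated (Ppard, Pparg, Rxrg, Nr1h3 and Esrra; 10.3% of all genes) and 2 were downregulated (Thrb and Vdr; 7.7% of all genes), while 14 were higher (34.8% of all genes) and 11 were lower (36.2% of all genes). The median log2 fold change of the 26 was 0.07 in the early phase, 0.16 in the late phase and 0.25 over the whole process, beside 0.02, -0.01 and -0.02 for all genes tested. Both sets of shares include Rxrg and Thrb.

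The tested members followed different courses. Ppard, Pparg, Rxrg, Rara and Nr2f6 were higher in both phases, a course taken by 8.24% of all genes tested. The late result of Nr2f6 was lost with library size alone (adjusted p = 0.111), with limma (0.196 and 0.187) and without day 4 replicate 1, day 4 replicate 3, day 8 replicate 1 or day 8 replicate 2 (up to 0.115), and that of Ppard with library size alone (0.0698) and with limma on log2(FPKM + 0.1) (0.0562). Nr1h2, Nr1h3, Rora and Esrra were higher in the early phase and did not pass the test in the late phase (16.4% of all genes). The late result of Rora (adjusted p = 0.0583) passed with median-of-ratios factors (0.0363), DESeq2 (0.0485), no filter (0.0438) and a replicate block (0.029). It also passed without day 0 replicate 2, day 4 replicate 3 or day 8 replicate 1 (0.0131 to 0.0498). Those of Nr1h3 (0.0335) and Esrra (0.0149) passed without day 4 replicate 3, and that of Nr1h2 without day 4 replicate 2 (0.023). Rarg, Thrb, Nr2c2 and Nr3c2 were lower in the early phase and did not pass in the late phase (18.2% of all genes). Rarg was also lower in the late phase with library size alone (adjusted p = 0.0455) and with limma (0.0261 and 0.029). Thrb was upregulated late without day 8 replicate 2 (1.46, adjusted p = 0.0208), and Nr3c2 was higher late without day 4 replicate 1 (0.0361). Rxra, Thra and Vdr were higher in the early and lower in the late phase, so that they were highest at day 4, a course taken by 10.9% of all genes tested. The 6 members Nr1d1, Nr1d2, Nr2f2, Nr3c1, Nr4a1 and Nr4a2 were lowest at day 4, lower in the early and higher in the late phase, a course taken by 9.82% of all genes tested. Since both phases share the day 4 samples, an error in those samples would move both in opposite directions. Of these 9 members, Vdr no longer passed in the early phase without 4 of the samples in turn, and Nr4a1 and Nr4a2 no longer passed in the late phase without 3 and 4 of them. The same 3 results were also lost with library size alone (adjusted p = 0.131 for Vdr, 0.0582 for Nr4a1 and 0.0573 for Nr4a2) and with limma at both pseudocounts, and that of Nr4a2 with DESeq2 (0.0661).

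**Figure D2:**
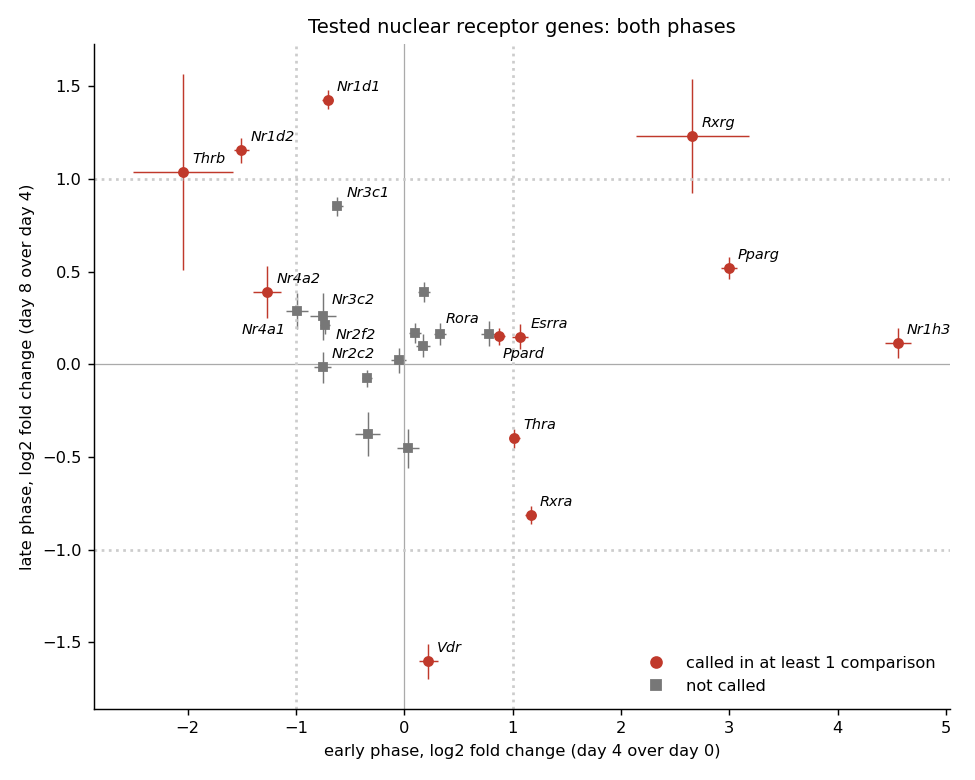
Log2 fold change in the early phase (x axis) against the late phase (y axis) for the 26 tested members, with standard errors; dotted lines mark a 2-fold change, and red circles mark members called in at least 1 comparison. Nr1h3 (4.56 and 0.11) and Pparg (3.00 and 0.52) lie far to the right, Rxra and Vdr lie below, and the REV-ERB genes Nr1d1 and Nr1d2 lie at the upper left; both axes use the same day 4 samples.

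The peroxisome proliferator-activated receptors (PPARs) are sensors of fatty acids. Pparg (gene ID 19016) stood at 11.45, 11.4 and 11.7 FPKM in the day 0 samples, at 87.63, 91.86 and 100.22 at day 4, and at 119.31, 136.43 and 133.39 at day 8. The 3 days did not overlap, and the mean was 8.1 times higher at day 4 and 11.3 times higher at day 8 than at day 0. Its log2 fold change was 3.00 ± 0.07 (SE) in the early phase (adjusted p = 3.99e-15) and 0.52 ± 0.06 in the late phase (adjusted p = 2.67e-06). Ppard, the broadly expressed member known for fatty acid oxidation, stood at 29.8, 30.34 and 30.91 FPKM at day 0, at 51.78, 55.16 and 52.69 at day 4, and at 55.41, 57.52 and 58.65 at day 8. It was higher in the early phase (0.88 ± 0.05, adjusted p = 1.03e-10) and crossed the 2-fold line over the whole process (1.03 ± 0.05, adjusted p = 1.41e-11). That upregulated call was lost when libraries were scaled by their size alone (0.91) or with limma on the FPKM values (0.89 and 0.91). Ppara, the main PPAR of liver, was listed in 7 samples, at no more than 0.11 FPKM. Ppard was thus the larger part of the PPAR pool at day 0, and Pparg later: the share of Pparg in the summed PPAR level went from 27.5% ± 0.22 (SD, n = 3) before induction to 63.6% ± 1.7 after 4 days and 69.3% ± 1.0 after 8. The exact permutation p of the early difference was 0.1 (two-sided), the smallest that 3 samples against 3 allow.

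The files also give for each gene and sample a mean transcript length weighted by the abundance of the gene's transcripts. For Pparg this was 1912, 1927 and 1904 bases at day 0, 1811, 1805 and 1803 bases at day 4, and 1797, 1800 and 1801 bases at day 8. The 3 days did not overlap. The mean fell by 107.9 bases in the early phase and by a further 6.87 bases in the late phase (exact permutation p = 0.1 for each, two-sided, the smallest possible). The files name 4 Pparg transcripts, of which 3 have a counterpart in the mouse GENCODE release M21, with lengths there of 1767, 1826 and 2125 bases. The shortest of the 3 starts at the most downstream of the gene's 3 annotated starts, at base 115422066 of chromosome 6 (GRCm38, plus strand). That transcript is the one that encodes PPARγ2, the isoform known to be characteristic of fat cells. Only the weighted mean was deposited, so the share of each transcript was not measured. The mean length of Rarg, Nr1h3, Rxra and Rara also fell in the early phase without overlap, by 33.2, 30.0, 24.5 and 15.8 bases (exact permutation p = 0.1 each), and that of Nr2f2 by 1.29 bases, while that of Thra rose by 2.64 bases.

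**Figure D3:**
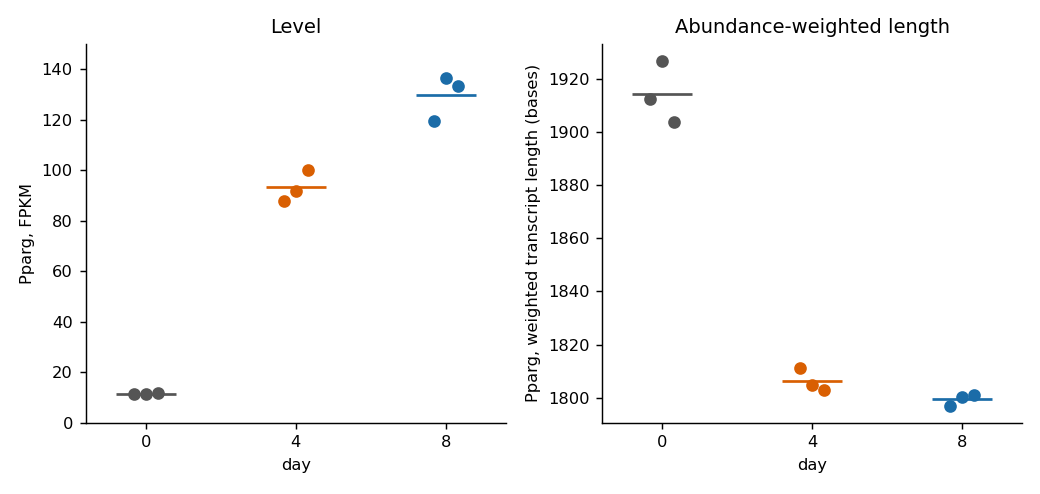
Pparg in each of the 9 samples by day (points; horizontal lines are the means of the 3 samples): level in FPKM on the left, and abundance-weighted mean transcript length in bases on the right, on an axis that does not start at 0. The level is highest at day 8 (119 to 136 FPKM), and the length falls from above 1900 bases at day 0 to about 1800 bases at days 4 and 8.

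Rxrg showed a like difference in length on far fewer reads: 2151 bases in both day 0 samples that listed it, 1835, 1695 and 1695 bases at day 4, and 1720, 1701 and 1695 bases at day 8. The GENCODE counterparts of its 2 transcripts are 1630 and 2110 bases long, shorter than the lengths in the files, and the shorter one begins near the downstream of the gene's 2 starts. The 250 bases before the downstream starts, from RefSeq on GRCm38.p6, are shown because the shorter transcripts of Pparg and Rxrg begin at or near them. Capitals mark the core letters AGGTCA on either strand (TGACCT where read on the opposite one), the hexamer that RXR dimers bind as a pair.
Pparg, chr6:115421816-115422065, plus strand: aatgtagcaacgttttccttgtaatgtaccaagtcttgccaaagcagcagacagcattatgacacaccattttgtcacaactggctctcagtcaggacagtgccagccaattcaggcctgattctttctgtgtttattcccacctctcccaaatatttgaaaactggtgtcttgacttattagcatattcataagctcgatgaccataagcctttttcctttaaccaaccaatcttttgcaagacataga
Rxrg, chr1:167618015-167618264, plus strand: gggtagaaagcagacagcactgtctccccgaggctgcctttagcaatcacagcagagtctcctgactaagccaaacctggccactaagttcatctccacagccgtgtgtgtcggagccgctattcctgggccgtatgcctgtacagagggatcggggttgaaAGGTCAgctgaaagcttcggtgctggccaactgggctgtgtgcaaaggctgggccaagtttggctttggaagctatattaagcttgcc
The window of Pparg held no copy of these letters, and that of Rxrg held 1, beginning 88 bases before the start. The other 2 Pparg starts held 1 copy each, and the upstream Rxrg start held none. Promoters of 42 members were in the RefSeq table, and 17.5% of their 63 windows held the hexamer, beside 14% of all 32851 windows of the same length. Such a match is a description of letters and not of a binding site.

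Genes of fat storage and fatty acid handling that PPARγ is known to bind were mostly upregulated in the early phase. Of 21 listed targets 20 were tested, all 20 were higher (35.5% of all genes) and 18 were upregulated (9.77% of all genes), with a median log2 fold change of 4.34 beside 0.02 for all genes. These counts include Cd36, Plin1, Pck1 and Aqp7, which had a mean under 10 counts at day 0. Those genes passed the filter on low counts through the later days, so their differences were in part a condition of being tested. Cidec, which enlarges lipid droplets, rose from 0.683 ± 0.078 to 773 ± 132 FPKM (SD, n = 3), a log2 fold change of 10.20 ± 0.16 (SE, adjusted p = 3.71e-17). The adipokine gene Adipoq rose by 9.91 ± 0.21 on the log2 scale, and the lipid droplet coat gene Plin1 by 9.62 ± 0.19. The untested target, Fgf21, stood at 0.433 ± 0.27 FPKM at day 0 and at 0.07 ± 0.035 at day 4, with no overlap. In the late phase 15 of the 20 were higher (22.5% of all genes), 3 were lower (22.7%) and 2 were upregulated (4.24%; Pck1 and Aqp7, named after their values were seen). The genes Adipoq, Fabp4, Plin1, Cidec and Lipe are also in the adipocyte marker list above.

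The retinoid X receptors are the dimer partners of PPARs, LXRs and many other members. Rxra (gene ID 20181) peaked at day 4: it stood at 42.94, 44.38 and 45.1 FPKM at day 0, at 89.51, 99.14 and 96.45 at day 4, and at 51.32, 51.43 and 53.87 at day 8. Each day was separate from the others. It was upregulated in the early phase (1.17 ± 0.05, adjusted p = 5.64e-12), lower in the late phase (-0.81 ± 0.05, adjusted p = 2.09e-09) and remained above day 0 over the whole process (0.35 ± 0.05, adjusted p = 1.08e-05). Rxrb, the evenly expressed partner, stood at 26.21, 23.96 and 25.8 FPKM at day 0, at 25.05, 26.53 and 26.69 at day 4, and at 28.5, 27.04 and 29.18 at day 8. Its early difference did not pass the test (0.10 ± 0.05, adjusted p = 0.126), and it was higher in the late phase (0.17 ± 0.05, adjusted p = 0.0198). That late result was lost without day 4 replicate 1 or day 8 replicate 3 (adjusted p up to 0.0627), with libraries scaled by size alone (0.0717) and with limma at both pseudocounts (0.106 and 0.108). Rxrg, the rarest RXR, stood at 0.11, 0 and 0.04 FPKM at day 0, at 0.44, 0.41 and 0.45 at day 4, and at 0.95, 1.15 and 0.92 at day 8. These levels rest on 4.78, 0 and 1.84 expected counts at day 0 and on 31 to 39.22 at day 8. The days did not overlap, and the calls were upregulated in the early phase (2.66 ± 0.52, adjusted p = 0.00028) and in the late phase (1.23 ± 0.31, adjusted p = 0.00382). Without day 0 replicate 1 the early value of Rxrg was 3.76 and without day 0 replicate 2 it was 2.14. With limma on log2(FPKM + 1), a scale that understates the change of low genes, its values were 0.45 and 0.48, under 2-fold in both phases. The share of Rxra in the summed RXR level was 63.5% ± 1.5 (SD) before induction, rose to 78.2% ± 0.41 by day 4 and was 64.1% ± 0.53 in the last samples, whereas Rxrg held no more than 1.24% on average at any day.

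The liver X receptors (LXRs) sense oxysterols and drive cholesterol export and fatty acid synthesis. Nr1h3 (LXRα, gene ID 22259) had the largest early log2 fold change of the 26 tested members, 4.56 ± 0.12 (adjusted p = 1.73e-14). It stood at 2.03, 1.74 and 2.1 FPKM at day 0, at 37.21, 46.48 and 51.04 at day 4, and at 46.32, 46.67 and 48.33 at day 8. All later samples lay above every day 0 sample, and days 4 and 8 overlapped (late phase 0.11 ± 0.08, adjusted p = 0.279). Nr1h2 (LXRβ), the broadly expressed paralog, stood at 44.22, 38.82 and 41.16 FPKM at day 0, at 41.27, 48.35 and 43.95 at day 4, and at 46.47, 45.07 and 47.17 at day 8. The first pair of days overlapped. Its early difference of 0.17 ± 0.06 (adjusted p = 0.0253) no longer passed when libraries were scaled by size alone (0.11, adjusted p = 0.138) or without day 0 replicate 2, day 0 replicate 3 or day 4 replicate 2 (adjusted p up to 0.214). It was also lost with limma (0.233 and 0.223), with the edgeR exact test (0.05) and in the model of the 2 days alone (0.0558). Nr1h3 thus went from 4.51% ± 0.30 of the summed LXR level at day 0 to 50.1% ± 3.3 at day 4 and 50.5% ± 0.5 at day 8 (exact permutation p = 0.1 in the early phase, the smallest possible).

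Of 9 known LXR target genes 8 were tested, 7 were higher (35.5% of all genes) and 6 were upregulated (9.77% of all genes) in the early phase (median 1.52 on the log2 scale). The desaturase gene Scd1 rose from 35.3 ± 3.7 to 652 ± 84 FPKM and to 1985 ± 227 at day 8 (early 4.28 ± 0.11, late 1.65 ± 0.10). The cholesterol exporter gene Abcg1 rose by 3.85 ± 0.20 and Apoe, which carries cholesterol, by 3.41 ± 0.14 in the early phase. Pltp, the phospholipid transfer gene and the 1 exception, was downregulated in the early phase (-1.25 ± 0.07) and was named after its value was seen.

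**Figure D4:**
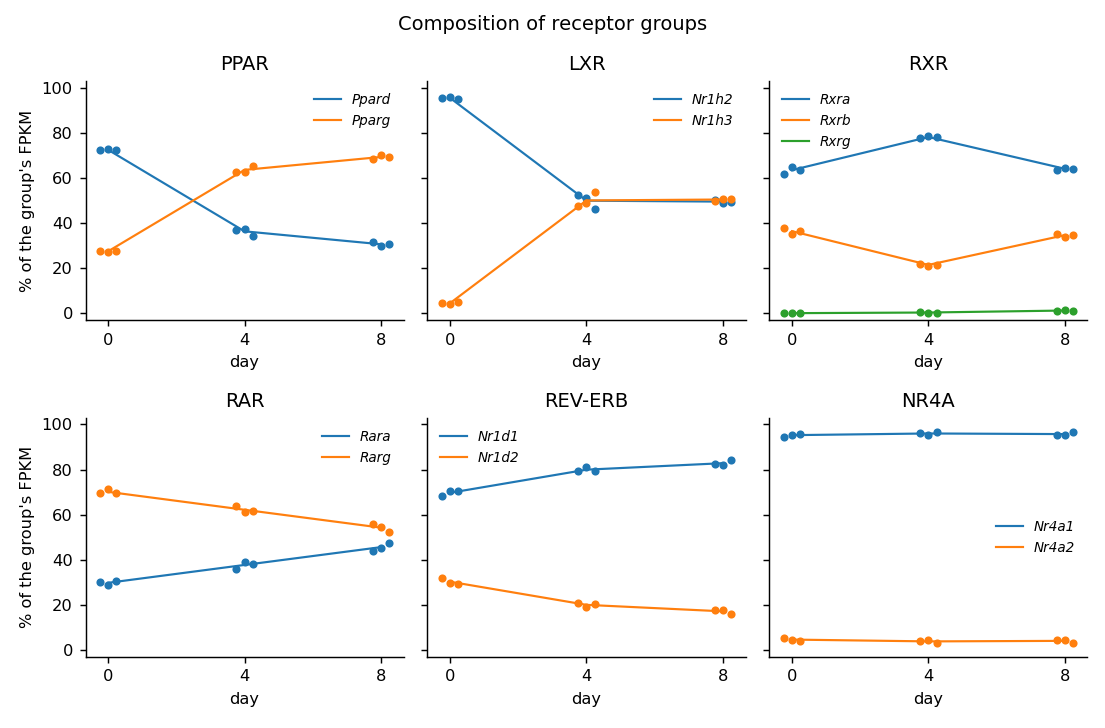
Percent of the summed FPKM of each receptor group held by each of its genes, by day (points are the 9 samples, lines join the day means; genes under 1% at every day are left out). Pparg overtakes Ppard between day 0 and day 4, Nr1h3 goes from 4.51% to about 50% of the LXR level, Rxra has its largest share at day 4, and Rara gains on Rarg.

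Among the hormone receptors, Thra (TRα, gene ID 21833) had the highest mean of the 46 genes at every day, although its samples overlapped with those of Rarg at day 0 and of Pparg at day 8. It stood at 98.41, 91.68 and 102.59 FPKM at day 0, at 185.09, 189.1 and 190.11 at day 4, and at 143.12, 133.31 and 137.67 at day 8. The days did not overlap and day 4 was highest. The early log2 fold change was 1.02 ± 0.05 (adjusted p = 3.34e-11) and the late one -0.40 ± 0.05 (adjusted p = 7.53e-06). The early call sits on the 2-fold line: it was lost without day 0 replicate 2 (0.97), without day 4 replicate 2 (0.996), with libraries scaled by size alone (0.95) and with limma at both pseudocounts (0.94 and 0.95), while the adjusted p stayed under 0.05 in each. The 3′ end of Thra overlaps that of Nr1d1 on the opposite strand of chromosome 11. In GENCODE M21 (GRCm38) Thra spans bases 98740638 to 98769006 and Nr1d1 spans 98767932 to 98775333, and 263 exonic bases are shared. Whether strand was used in counting is not given in the sources used here, so reads in these bases cannot be told apart. They make up 5.7% of the exonic bases of Thra and 8.55% of those of Nr1d1.

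Thrb (TRβ) was near the floor of detection: 0.38, 0.2 and 0.24 FPKM at day 0, 0.05, 0.07 and 0.07 at day 4, and 0.12, 0.04 and 0.23 at day 8, from 5.03 to 46.87 expected counts. Days 0 and 4 did not overlap (early -2.05 ± 0.46, adjusted p = 0.000923), and days 0 and 8 did. With limma on log2(FPKM + 1) the early value was -0.26, under 2-fold. The downregulated call over the whole process (-1.01 ± 0.40, adjusted p = 0.0345) was lost in 9 of 18 alternatives, among them the samples without day 0 replicate 1 (-0.69, adjusted p = 0.178) and without day 8 replicate 2 (-0.59, adjusted p = 0.165). Of 6 known thyroid hormone targets 4 were tested. In the early phase 3 were higher (35.5% of all genes) and 2 were upregulated (9.77%): Thrsp, a lipogenic gene, rose by 10.33 ± 0.17 and then fell by 2.03 ± 0.08 in the late phase, and Klf9 rose by 1.04 ± 0.07. Thrsp passed the filter on low counts through the later days. Its early difference, included in both counts, was thus in part a condition of being tested. Klf9 is also in the glucocorticoid list below. Hr, a corepressor, was the 1 that was lower (-0.76 ± 0.15), named after its value was seen. Ucp1 and the deiodinase genes Dio1, Dio2 and Dio3, which remove iodine from thyroid hormone, were at day means of no more than 0.0433 FPKM.

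The retinoic acid receptors moved against each other. Rara stood at 40.2, 36.85 and 39.84 FPKM at day 0, at 39.63, 44.89 and 42.54 at day 4, and at 52.8, 53.06 and 55 at day 8. Day 8 lay above all earlier samples (late 0.39 ± 0.06, adjusted p = 3.12e-05), and days 0 and 4 overlapped (early 0.18 ± 0.06, adjusted p = 0.01, not passed with library size alone at adjusted p = 0.0721, nor with limma at 0.0907 and 0.0883, nor without day 0 replicate 2 or day 4 replicate 2, up to 0.0872). Rarg stood at 92.57, 91.61 and 90.78 FPKM at day 0, at 70.04, 70.25 and 68.94 at day 4, and at 66.78, 64.23 and 60.51 at day 8. It was lower in the early phase (-0.34 ± 0.04, adjusted p = 4.28e-06), and Rara's share of the summed RAR level was 29.8% ± 1.0 (SD) in the first samples, 37.7% ± 1.5 after 4 days and 45.6% ± 1.8 after 8. Rarb, itself a classical retinoic acid target, stayed between 0.02 and 0.26 FPKM. Of 10 known retinoic acid targets 6 were tested and gave no common direction in the early phase. Tgm2 (2.89 ± 0.19) and Dhrs3 (2.37 ± 0.11) were upregulated (9.77% of all genes). Cyp26b1 (-1.30 ± 0.12), which degrades retinoic acid, was downregulated (7.98% of all genes), and 3 did not pass.

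Vdr, the vitamin D receptor (gene ID 22337), was the only member downregulated in the late phase. It stood at 14.44, 18.1 and 15.4 FPKM at day 0, at 19.22, 18.54 and 15.46 at day 4, and at 6.23, 5.49 and 5.28 at day 8. Day 8 lay below all earlier samples, and days 0 and 4 overlapped. The late log2 fold change was -1.60 ± 0.09 (adjusted p = 1.31e-09), which is a level 3.13 times higher at day 4 than at day 8 in FPKM. This call held in all 19 alternatives, while the small early difference (0.22 ± 0.09, adjusted p = 0.0326) did not pass with library size alone (adjusted p = 0.131), with limma (0.312 and 0.303), in the model of the 2 days alone (0.0561) or without day 0 replicate 1, day 0 replicate 3, day 4 replicate 1 or day 4 replicate 2 (0.103 to 0.151). Of 5 known vitamin D targets 3 were tested. Spp1 fell by 2.47 on the log2 scale in the early phase and was higher in the late phase (0.91 ± 0.15), and S100g, absent from the tables of all day 0 samples, stood at 2.47 ± 0.62 FPKM at day 4 and at 0.59 ± 0.32 at day 8. Trpv6, a calcium channel gene, was upregulated in the early phase on few reads (1.70 ± 0.61, adjusted p = 0.0205), from 2, 3 and 2 expected counts at day 0 to 5, 11 and 7 at day 4. S100g and Trpv6 passed the filter on low counts through the later days, so their differences were in part a condition of being tested, and no count is given for this list. Cyp24a1, the most sensitive of the known targets, was at a day mean of no more than 0.01 FPKM.

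The REV-ERB receptors are repressors that bind heme and time the circadian clock. Nr1d1 (REV-ERBα, gene ID 217166) stood at 21.98, 22.18 and 22.96 FPKM at day 0, at 12.6, 13.78 and 12.81 at day 4, and at 33.79, 33.68 and 34.66 at day 8. Nr1d2 (REV-ERBβ, gene ID 353187) stood at 10.28, 9.32 and 9.56 FPKM at day 0, at 3.3, 3.21 and 3.29 at day 4, and at 7.25, 7.34 and 6.55 at day 8. Both were lowest at day 4 with no overlap between days, but they ended on different sides of day 0. In the early phase Nr1d1 was lower (-0.71 ± 0.05, adjusted p = 5.93e-09) and Nr1d2 was downregulated (-1.51 ± 0.07, adjusted p = 8.46e-12). In the late phase both were upregulated, by 1.43 ± 0.05 (adjusted p = 4.71e-12) and 1.15 ± 0.07 (adjusted p = 1.51e-09). The late value of Nr1d2 was under 2-fold with limma on log2(FPKM + 1) (0.91). Over the whole process Nr1d1 was higher (0.72 ± 0.05) and Nr1d2 lower (-0.35 ± 0.06), and the share of Nr1d1 in the pair went from 69.7% ± 1.4 (SD) over 80.0% ± 1.0 to 82.8% ± 1.1. Nr1d1 was lowest at day 4, the day at which Thra, with which it shares exonic bases, was highest.

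Rora, the activator that competes with REV-ERB for the same sites, stood at 3.69, 3.52 and 3.98 FPKM at day 0, at 6.06, 5.83 and 6.45 at day 4, and at 6.09, 6.68 and 7.04 at day 8. It was higher in the early phase (0.78 ± 0.07, adjusted p = 5.47e-08), and all later samples lay above day 0. Rorb was listed at no more than 0.01 FPKM in a sample. Of 10 clock genes driven by E-boxes or D-boxes, 3 were downregulated (7.98% of all genes) and 2 upregulated (9.77%) in the early phase, and 5 were upregulated (4.24%) and 1 downregulated (2.81%) in the late phase (median -0.14 and 0.99). Ciart, a repressor of the clock, went from 4.58 ± 0.38 to 1.51 ± 0.15 and back to 4.15 ± 0.41 FPKM (early -1.53 ± 0.15, late 1.50 ± 0.15). The D-box gene Hlf rose in both phases (3.92 ± 0.26 and 1.51 ± 0.14), and Per1, which is also a glucocorticoid target, rose by 1.78 ± 0.05 and then fell by 1.20 ± 0.05. Hlf is included in the counts of this list although it passed the filter on low counts through the days at which it was higher. Of the 5 genes that REV-ERB is known to repress, 4 were higher (35.5% of all genes) and 1 did not pass in the early phase, and in the late phase 2 were lower (22.7% of all genes) and 3 did not pass. Their changes were small apart from Npas2, which was at a day mean of no more than 0.193 FPKM. Npas2 passed the filter on low counts through the days at which it was higher, so its difference was in part a condition of being tested. The hour of collection is not given in the sources used here, so hour and day cannot be told apart.

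The glucocorticoid receptor gene Nr3c1 (gene ID 14815) stood at 25.4, 26.61 and 27.2 FPKM at day 0, at 16.67, 15.23 and 17.29 at day 4, and at 28.83, 29.65 and 27.61 at day 8. No day overlapped with another. It was lower in the early phase (-0.62 ± 0.05, adjusted p = 1.98e-08) and higher in the late phase (0.85 ± 0.05, adjusted p = 1.75e-09), short of 2-fold in both. Known targets of the receptor took the opposite course. All 12 were higher in the early phase (35.5% of all genes), 10 of them upregulated (9.77%), and all 12 were lower in the late phase (22.7%), 10 of them downregulated (2.81%), with medians of 2.25 and -1.80 on the log2 scale. The transcription factor gene Zbtb16 rose by 6.53 ± 0.14 and fell by 2.32 ± 0.09, the glutamine synthetase gene Glul rose by 5.50 ± 0.08 and fell by 1.76 ± 0.06, and Fkbp5, a chaperone that restrains the receptor, went from 12.7 ± 1.4 to 199 ± 2.0 and back to 14.3 ± 0.49 FPKM. The early and late values of this list share the day 4 samples. By the study's schedule dexamethasone had been replaced for 2 days when the day 4 cells were collected. Nr3c2, the mineralocorticoid receptor gene, stood between 1.09 and 2.33 FPKM in all samples and was lower in the early phase (-0.75 ± 0.12, adjusted p = 3.82e-05).

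**Figure D5:**
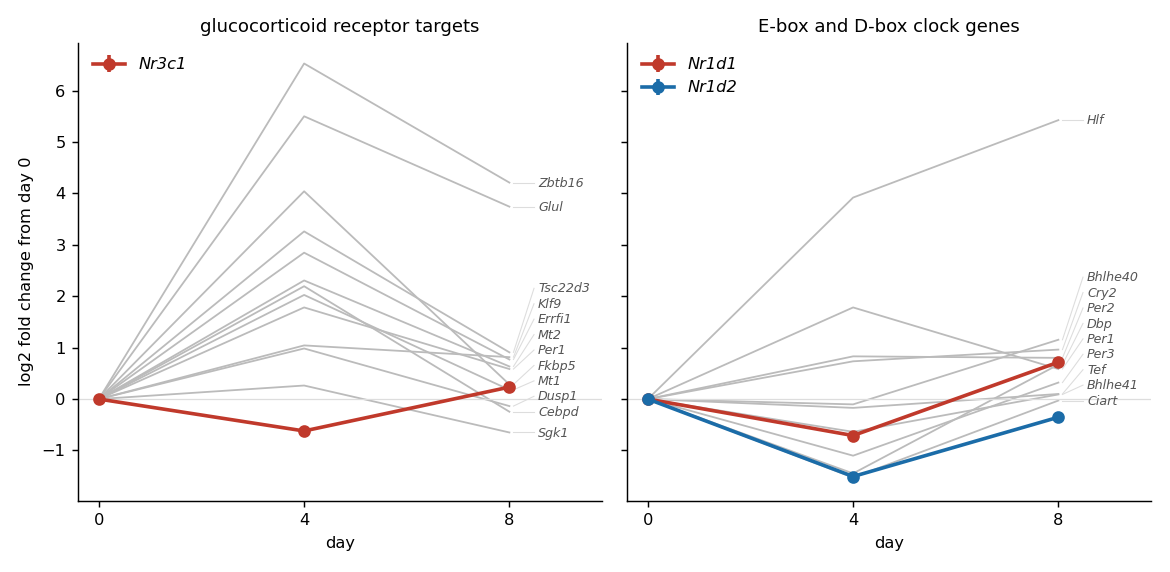
Log2 fold change from day 0 at days 4 and 8 for Nr3c1 beside 12 known glucocorticoid receptor targets (left), and for Nr1d1 and Nr1d2 beside 10 clock genes (right); coloured points are the receptors with standard errors, grey lines the named genes. All 12 targets are above 0 at day 4 and lower at day 8 while Nr3c1 is below 0 at day 4, and 6 of the 10 clock genes are below 0 at day 4.

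Of 22 genes whose products make, remove or carry ligands of the family 11 were tested. In the early phase 4 were upregulated (Aldh1a1, Dhrs3, Hsd11b1 and H6pd), beside 9.77% of all genes, and 4 did not pass. Cyp26b1 was among the 2 downregulated, beside 7.98% of all genes. Hsd11b1, which regenerates active glucocorticoid inside the cell, stood at 0.54 ± 0.19 FPKM at day 0, at 43.2 ± 8.5 at day 4 and at 139 ± 15 at day 8, and it was upregulated in both phases (6.37 ± 0.22 and 1.73 ± 0.11). H6pd, which supplies the cofactor of that enzyme, was named after its value was seen and stood at 12.8 ± 0.86, 34.2 ± 1.2 and 32.8 ± 1.5 FPKM. Aldh1a1, which makes retinoic acid, rose by 5.61 ± 0.15 and fell by 3.47 ± 0.12, and Dhrs3, which turns retinal back into retinol, rose by 2.37 ± 0.11 and did not pass in the late phase (0.12 ± 0.09).

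The NR4A receptors are immediate early genes without a known ligand pocket. Nr4a1 stood at 58.99, 74.97 and 77.24 FPKM at day 0, at 37.4, 28.27 and 35.74 at day 4, and at 40.89, 37.84 and 41.19 at day 8. The lowest day 0 sample was above all later samples. Its early change of -0.99 ± 0.10 (adjusted p = 1.52e-07) was just under 2-fold and crossed that line without day 0 replicate 1 (-1.10), day 4 replicate 1 (-1.07) or day 4 replicate 3 (-1.03), and with library size alone (-1.06). It was higher in the late phase (0.29 ± 0.10, adjusted p = 0.0263), a result lost with library size alone (0.0582). Nr4a2 stood at 3.41, 3.49 and 3.2 FPKM at day 0, at 1.49, 1.29 and 1.22 at day 4, and at 1.94, 1.72 and 1.42 at day 8, and was downregulated in the early phase (-1.27 ± 0.13, adjusted p = 2.17e-07; -0.91 with limma on log2(FPKM + 1)). Its late difference (0.39 ± 0.14, adjusted p = 0.0319), with overlapping samples, was lost with library size alone (0.0573). Nr4a3 stayed between 0.02 and 0.13 FPKM. Of 10 other immediate early genes 3 were downregulated (7.98% of all genes; Atf3, Ier3 and Egr2) and 2 upregulated (9.77%; Fos and Fosb) in the early phase, so the list had no common direction (median -0.03). Atf3 fell by 2.63 ± 0.19 on the log2 scale, Ier3 went from 43.7 ± 7.0 to 10.5 ± 1.8 FPKM (SD, n = 3), and Fosb rose by 1.93 ± 0.37 on the log2 scale. The summed level of these 10 genes was 661, 533 and 985 FPKM in the 3 day 4 samples, a wider spread than at day 8 (684 to 759 FPKM).

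Esrra (oestrogen-related receptor α, gene ID 26379), a regulator of mitochondrial genes, stood at 14.13, 13.05 and 14.58 FPKM at day 0, at 24.95, 28.14 and 30.54 at day 4, and at 29.01, 30.74 and 29.97 at day 8. All later samples lay above day 0, and days 4 and 8 overlapped. It was upregulated in the early phase (1.07 ± 0.07, adjusted p = 1.44e-09) and did not pass in the late phase (0.15 ± 0.07, adjusted p = 0.089). The early call sits near the 2-fold line: it was lost with limma at both pseudocounts (0.95 and 0.99), and the lowest value with 1 sample left out was 1.0012. Esrrg stayed between 0.01 and 0.09 FPKM, and Esrrb was listed at 0.01 FPKM in day 0 replicate 2 and in no other sample. Of 9 tested genes known as targets of these receptors, 8 were higher (35.5% of all genes) and 1 did not pass in the early phase, and 4 were upregulated (9.77% of all genes). Acadm of fatty acid oxidation rose by 2.71 ± 0.06, Idh3a of the citric acid cycle by 2.02 ± 0.08 and the cytochrome c gene Cycs by 1.76 ± 0.09. In the late phase 4 were higher (22.5% of all genes) and 4 lower (22.7%).

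The remaining 6 tested members are orphan receptors. Nr2f2 (COUP-TFII) stood at 36.3 ± 0.62 FPKM (SD, n = 3) at day 0, at 20.9 ± 0.55 at day 4 and at 23.4 ± 1.6 at day 8, and was lower in the early phase (-0.73 ± 0.05, adjusted p = 1.27e-09). Nr2f1 (COUP-TFI) went from 8.02 ± 0.22 to 6.06 ± 0.61 and 4.53 ± 0.98 FPKM and was lower in both phases, although the late result (-0.38 ± 0.12, adjusted p = 0.0175) was lost without day 4 replicate 3, day 8 replicate 2 or day 8 replicate 3 (adjusted p up to 0.125) and with limma on log2(FPKM + 1) (0.0506). Nr2f6 was higher in the early phase (0.33 ± 0.06, adjusted p = 0.000121) and made up 47.9% of the summed level of these 3 genes at day 0 and 65.6% at day 8. Nr2f6 shares 54.4% of its exonic bases in GENCODE M21 with Ocel1 on the opposite strand. The authors' annotation and strand setting are not given, and the expected counts of Nr2f6 were whole in all 9 samples. Whether its counts include reads of Ocel1 was not tested. Nr2c2 (TR4) was lower in the early phase (-0.75 ± 0.08, adjusted p = 4.87e-07), with 30.7% of its exonic bases shared with the antisense gene Mrps25. Its paralog Nr2c1 (TR2) passed in no comparison (early -0.05 ± 0.07). Nr6a1, the germ cell nuclear factor, stood between 2.07 and 2.56 FPKM at days 0 and 4 and between 1.48 and 1.68 at day 8 (late -0.45 ± 0.11, adjusted p = 0.00242).

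The members without a test are mostly known from liver, gut, gonads, adrenal or retina. Hnf4a, Hnf4g, Nr1i2 (PXR), Nr1i3 (CAR), Nr1h4 (FXR), Nr5a1, Nr5a2 and Nr2e1 stayed at or below 0.1 FPKM in all 9 samples. The oestrogen receptor gene Esr1 was listed in 7 samples at no more than 0.11 FPKM, and Esr2 in all 9 at 0.02 to 0.27 FPKM. An expected count of 0 in a sample allows up to 3 counts, or between 0.147 and 0.165 CPM (counts scaled to the library's total), and these limits cover counting error only.

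Coregulators carry the activity of the receptors to chromatin. All 17 were tested: in the early phase 5 were higher (35.5% of all genes), 11 were lower (33.7% of all genes) and 1 did not pass, with 2 upregulated (9.77% of all genes). Their summed level was 364 to 372 FPKM at day 0 and 316 to 341 at day 4. The coactivator gene Ppargc1b rose from 0.787 ± 0.17 to 3.00 ± 0.40 FPKM (adjusted p = 5.2e-09), and the corepressor gene Nrip1 from 6.49 ± 0.69 to 15.4 ± 0.85 FPKM (1.31 ± 0.08). Ncor1 (-0.12 ± 0.04), a corepressor of unliganded receptors, was lower, as were the acetyltransferase genes Ep300 (-0.43 ± 0.05) and Crebbp (-0.47 ± 0.05), all 3 named after their values were seen.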

How the data were processed

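RNA sequencing of 3T3-L1 cells at days 0, 4 and 8 (3 samples each) was analysed from 1 table per sample. The expected counts were made by the authors with RSEM, which divides reads among transcripts, after alignment with Bowtie2; 29.8% of them were not whole and all were rounded before testing. The FPKM values were deposited by the authors beside them and describe levels only. The submitters' processing notes also name CASAVA (1.4). The genome build, the annotation release and the strand setting are not given in the sources used here, and the sequencing platform is described in different ways.

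A gene missing from a sample's table was taken as 0. Symbols turned into dates (26) were restored by gene ID. Counts were fitted across all 9 samples with edgeR (4.0.16, R 4.3.3) by its quasi-likelihood test, with TMM factors, the default filter on low counts by day and Benjamini-Hochberg adjustment over all 13154 genes tested. The script was tested on simulated data. With 3 samples against 3, exact permutation tests cannot give p below 0.1; the 84 share tests had a smallest adjusted p of 0.165. Counting intervals and floors (3 counts) cover counting error only.

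The members and the gene lists (targets of the receptors, clock, immediate early and ligand-metabolism genes, coregulators, markers of other cell types) were chosen with earlier results of these data known. From each list of related genes, up to 3 called genes with the largest early change were named; others are marked as chosen after their values were seen. Alternatives were other normalizations and filters, DESeq2 (1.42.0), edgeR's exact test, limma (3.58.1) on log2(FPKM + 1) and log2(FPKM + 0.1), models of 2 days, a replicate block and leaving out each sample. Overlaps between genes came from GENCODE M21 and promoter windows from RefSeq (GRCm38.p6), which held 42 of the 46 members, without Nr5a1, Thra, Hnf4g and Nr3c1. Classes of DNA-binding domain were not analysed here. Some genes of the lists are not reported here by name.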

Additional observations from a re-analysis of the deposited data

How the results depend on the processing

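Among the log2 fold changes of the 26 tested members in the 3 comparisons (78 values), 76 kept their direction and their side of an adjusted p of 0.05, whatever the 2-fold line, with median-of-ratios factors, 77 without a filter on low counts, all 72 that could be tested with at least 10 counts in every sample, 74 with DESeq2, 76 of 77 with the edgeR exact test, 75 of 77 in models of 2 days, 67 with library size alone and 64 with limma at either pseudocount. With the 2-fold line counted too, the call changed for 2 values with median-of-ratios factors, 1 without a filter, 3 with DESeq2, 2 with the exact test, 2 in models of 2 days, 12 with library size alone, 22 with limma on log2(FPKM + 1) and 16 on log2(FPKM + 0.1). Library size alone moved the median of all genes over the whole process from -0.02 to -0.13. The number upregulated was 3 in the early phase, 1 in the late phase and 3 over the whole process with limma on log2(FPKM + 1), against 6, 3 and 5. The number downregulated in the late phase was 2 without a filter (1 with it), and the number higher in the late phase was 7 with library size alone (12 with TMM). The number downregulated over the whole process was 1 in place of 2 with median-of-ratios factors, with at least 10 counts in every sample, with DESeq2, with the edgeR exact test and with limma at both pseudocounts. Thrb was the call lost, or not tested, in these, and the cause was not tested. These numbers count over all 46 members, since another filter or set of samples can admit members outside the 26. Leaving out 1 sample at a time left the number downregulated over the whole process between 1 and 2, that of members upregulated early between 6 and 7, late between 3 and 4 and over the whole process between 5 and 7. Among the 26 alone, the number upregulated lay between 5 and 6 early, 3 and 4 late and 5 and 6 over the whole process. Of the 702 values with 1 sample left out, 658 kept direction and side of the adjusted p, and 43 changed their call with the 2-fold line counted.

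The values that changed sign were near 0. Nr2c1 in the late phase (0.02) was -0.0241 with library size alone, -0.0209 with limma on log2(FPKM + 1) and -0.0236 on log2(FPKM + 0.1). Nr6a1 in the early phase (0.04) was -0.0282, -0.0187 and -0.0263 under the same settings, and lay between -0.0517 and 0.103 with 1 sample left out. Nr2c2 in the late phase (-0.02) was 0.00177 with median-of-ratios factors and 0.00431 with DESeq2, and lay between -0.12 and 0.0900 with 1 sample left out. With 1 sample left out, Nr1h3 in the late phase (0.11) lay between -0.00407 and 0.21, and Nr2c1 over the whole process (-0.03) between -0.0877 and 0.00949.

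For samples with the same replicate number, the correlation of their deviations averaged 0.0411 (-0.0436 to 0.134) and was over 0.1 in 1 of 9 pairs. For different numbers it averaged -0.0206 and was over 0.1 in 0 of 18 pairs. Deviations were taken from the day means, so the second average follows from the first and adds nothing to it. Whether samples with the same number were handled together was not tested. With the replicate block 13 members were higher in the late phase in place of 12, the added one being Rora (0.16, adjusted p = 0.029), and 77 of 78 values kept their call. Depth limits the calls for Rxrg and Thrb, which rest on no more than 46.9 expected counts in a sample.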
